A study of Mus musculus with 10 samples.

Results

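The 10 genes described here are Myh6, Actc1, Tnnt2, Tnni3, Actn2, Myl7, Myl4, Ryr2, Sln and Nppa, a fixed list of cardiac-type muscle genes that were looked up by symbol in a table of mouse lung RNA-seq. All 10 were found among the 24394 gene symbols of the table, as 19 of its 34943 transcript rows with a symbol. The list was set by name and not by a rule on the values of the genes, though earlier results of these data were known. Each gene was followed in all 10 libraries as single transcript rows and as the sum of its rows, and the spread between mice was described because a lung dissected with more or less of the large vessels at its root can hold more or less of this muscle.

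In the mouse, a sleeve of heart muscle of the atrial type leaves the left atrium and runs along the pulmonary veins into the lung. Its cells contract by the sliding of myosin over actin, switched on by calcium that the ryanodine receptor releases from the sarcoplasmic reticulum and that troponin senses on the thin filament. Atrial cells carry light chains of myosin of their own, sarcolipin in place of much of the phospholamban of the ventricle, and granules of the atrial natriuretic peptide.

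The mice were female BALB/c, 8 weeks old when bought. Saline mice (n = 3) were injected with saline only. OVA mice (n = 3) were a model of allergic asthma, sensitized to ovalbumin by 2 intraperitoneal injections with alum and then given ovalbumin into the nose on 4 days, with an oral vehicle for 7 days. Herb mice (n = 4) went through the same ovalbumin protocol and were given for 7 days, by mouth, an ethanol extract of Descurainia sophia seeds (DSE in the study). The study kept 7 mice in each group. The sources used here do not say whether mice were pooled, and each numbered replicate is called 1 mouse below. Values are FPKM, the number of fragments per kilobase of transcript and scaled to the mapped fragments of the library, so that levels of different genes can be set side by side. An exact 0 in this table can be a failed estimate, since even Gapdh, which every cell uses, has a 0 in 9 libraries, and such a value is called listed at 0 below.

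Facts of the libraries bear on every value below. Depth, estimated from the size of the smallest steps between values, ranged from 14700000 to 29400000 fragments. The labelled tissue was borne out by Sftpc, the surfactant protein of alveolar type 2 cells, at 209.97 to 3228 FPKM. The share of fragments on RefSeq messenger RNAs was 33.0 to 33.3% in Saline, 11.9 to 14.9% in OVA and 19.3 to 25.8% in Herb, and the ribosomal precursor Rn45s was listed at 1201 to 1386 FPKM in Saline, 10014 to 13531 in OVA and 3230 to 7019 in Herb. A share taken by one class of RNA lowers the FPKM of all other genes, and the group cannot be told apart from this share. The values were therefore read as deposited and again after each library was rescaled to a common 75th percentile of its values above 0, or to a common sum over RefSeq protein-coding rows. Herb replicate 2 stood apart in skeletal muscle genes and Saline replicate 2 in the genes described here, so fits that they move by over 1.5 times are given with and without them.

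The promoters of 4 of the genes are printed to show what lies before their starts in the members that differ most in behaviour. Myh6 and Myl4 are the 2 genes that differed between groups, Myl7 is the gene with the widest spread between mice, and Actc1 is the gene of highest mean level and of narrower spread. Each sequence is the 250 bases before an annotated start of the gene, 5′ to 3′ on its strand. All were taken from RefSeq on GRCm38.p6, the assembly also known as mm10. For Myh6 and Myl4 that start lies inside the annotated span of the gene and not at its outer end. Which start the measured rows use was not tested. Capitals mark matches to 6 motifs known from muscle and heart promoters, searched on both strands.
Myh6, minus strand, chr14:54966608-54966857: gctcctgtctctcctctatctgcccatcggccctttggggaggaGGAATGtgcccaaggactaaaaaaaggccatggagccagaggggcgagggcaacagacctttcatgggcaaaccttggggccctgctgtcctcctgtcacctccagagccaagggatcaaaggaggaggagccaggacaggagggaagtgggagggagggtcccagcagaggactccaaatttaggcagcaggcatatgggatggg
Myl4, plus strand, chr11:104550413-104550662: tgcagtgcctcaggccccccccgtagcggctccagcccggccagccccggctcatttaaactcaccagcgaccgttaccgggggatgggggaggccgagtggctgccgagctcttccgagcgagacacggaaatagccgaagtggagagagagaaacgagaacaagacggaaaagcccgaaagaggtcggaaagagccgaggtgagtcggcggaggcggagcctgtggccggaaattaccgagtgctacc
Myl7, minus strand, chr11:5898783-5899032: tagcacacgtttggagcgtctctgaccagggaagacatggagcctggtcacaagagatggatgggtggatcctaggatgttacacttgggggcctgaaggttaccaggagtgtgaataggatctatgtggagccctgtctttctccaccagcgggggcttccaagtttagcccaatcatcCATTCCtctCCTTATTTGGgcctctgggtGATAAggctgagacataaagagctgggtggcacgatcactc
Actc1, minus strand, chr2:114052876-114053125: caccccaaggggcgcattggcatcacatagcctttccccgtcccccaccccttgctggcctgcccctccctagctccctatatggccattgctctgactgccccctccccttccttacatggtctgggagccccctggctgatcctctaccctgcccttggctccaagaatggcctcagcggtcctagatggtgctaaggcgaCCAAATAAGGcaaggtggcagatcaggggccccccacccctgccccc

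Across the 10 promoter entries of 9 of the genes, matches were few. The CArG box, the site of serum response factor, was matched in Actc1, 47 bases before the start, and in Myl7, 61 bases before the start, against 1.47% of all 32851 promoters of the same length. CATTCC, a site of the TEAD factors, was matched in Myh6, Myl7 and Tnnt2, against 12.6% of all promoters. GATAA was matched in Myl7, Nppa and Tnnt2 (22.6% of all promoters), AGGTGT, a T-box motif, in Nppa and Tnni3 (11.8%), and TNAAGTG, an NKX2 motif, in Nppa (10.1%). The MEF2 site was matched in none of the 9 genes and in 2.92% of all promoters. These are matches of letters in a short window and not bound sites.

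In order of mean FPKM over the 10 libraries, the genes were Actc1 (5.21), Myl7 (2.61), Myl4 (2.43), Tnnt2 (2.03), Myh6 (1.93), Sln (1.80), Ryr2 (1.08), Tnni3 (0.740), Actn2 (0.591) and Nppa (0.279). The ranges of every 2 neighbours in this order overlapped, so the order holds for the means alone. By the median over libraries Myl7 was at 0.0052 FPKM, because 5 libraries listed it at 0 and its mean came almost wholly from 2 mice. Of the 10 genes, 7 had a mean of at least 1 FPKM and were tested across all symbols, and Tnni3, Actn2 and Nppa had not. Myh6, Myl4, Myl7 and Sln had means of 4.83, 6.33, 7.57 and 3.89 FPKM in Saline and at most 0.375 in OVA. They passed the filter through Saline, the group where they were high, so their place among the tested genes is no result. With no filter, Myh6 and Myl4 were still called lower in OVA vs. Saline, but not in Herb vs. Saline.

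Myh6 encodes alpha myosin heavy chain, the fast cardiac motor, which an adult mouse makes in atrium and ventricle alike. It lies on chromosome 14 from 54941921 to 54968017. It measured 4.53, 8.44 and 1.53 FPKM in the Saline libraries, 0.221, 0.186 and 0.717 in OVA, and 0.534, 0.308, 0.588 and 2.26 in Herb. Every Saline mouse stood above every OVA mouse, while Herb replicate 4 stood above Saline replicate 3, so Herb and Saline overlapped. About 191 to 1105 fragments lay behind each Saline value and 26.3 to 89.0 behind each OVA value.

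In OVA vs. Saline, Myh6 fell by 1.91 ± 0.48 (SE) on the log2(FPKM + 1) scale, a scale that understates the change of low genes (limma, adjusted p = 0.00719). In Herb vs. Saline it fell by 1.50 ± 0.45 (limma, adjusted p = 0.0390), and Herb vs. OVA gave 0.41 ± 0.45 (limma, adjusted p = 0.484). The median over all 11205 symbols tested was -0.75 in OVA vs. Saline, so Myh6 lay at -1.16 relative to that median. After the 75th percentile rescaling the OVA vs. Saline value was -1.55 (limma, adjusted p = 0.0321), and after rescaling to the coding sum it was -1.13 and no longer called (limma, adjusted p = 0.0676). The Herb vs. Saline call was lost under either rescaling (limma, adjusted p = 0.0750 and 0.126). Without Saline replicate 2 the OVA vs. Saline value was -1.46 (limma, adjusted p = 0.0244), and that of Herb vs. Saline -1.06, not called (limma, adjusted p = 0.130).

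The count of Myh6 carries limits of its own. Of its 76-base windows 15.4% are also found in Myh7, the neighbouring gene of beta myosin heavy chain, so fragments there can be assigned to either. Of its 2 RefSeq rows NM_010856 is listed at 0 in all libraries and NM_001164171 holds the values above. A further 6 transcript models without a symbol, assembled from the reads, lie among its rows in the table. The RefSeq rows hold 22.4 to 31.1% of the summed FPKM at this place in Saline, 5.50 to 13.1% in OVA and 6.54 to 14.5% in Herb. This share was larger in every Saline library than in any other, so the Myh6 differences above also carry the split between RefSeq rows and models. With those models added, Myh6 measured 14.5, 29.0 and 6.82 FPKM in Saline, 1.68, 3.39 and 6.62 in OVA and 8.17, 2.73, 4.34 and 15.6 in Herb. As deposited, OVA and Saline still did not overlap, although Saline replicate 3 and OVA replicate 3 were close, and the OVA vs. Saline value was -1.78 ± 0.65 (limma, adjusted p = 0.0380). Herb vs. Saline was -1.05 and not called (limma, adjusted p = 0.222). The 75th percentile rescaling multiplies Saline replicate 3 by 0.796 and OVA replicate 3 by 1.34. That puts OVA replicate 3 above Saline replicate 3, so the groups overlap once rescaled. No rescaled fit was run with the models added.

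**Figure D1:**
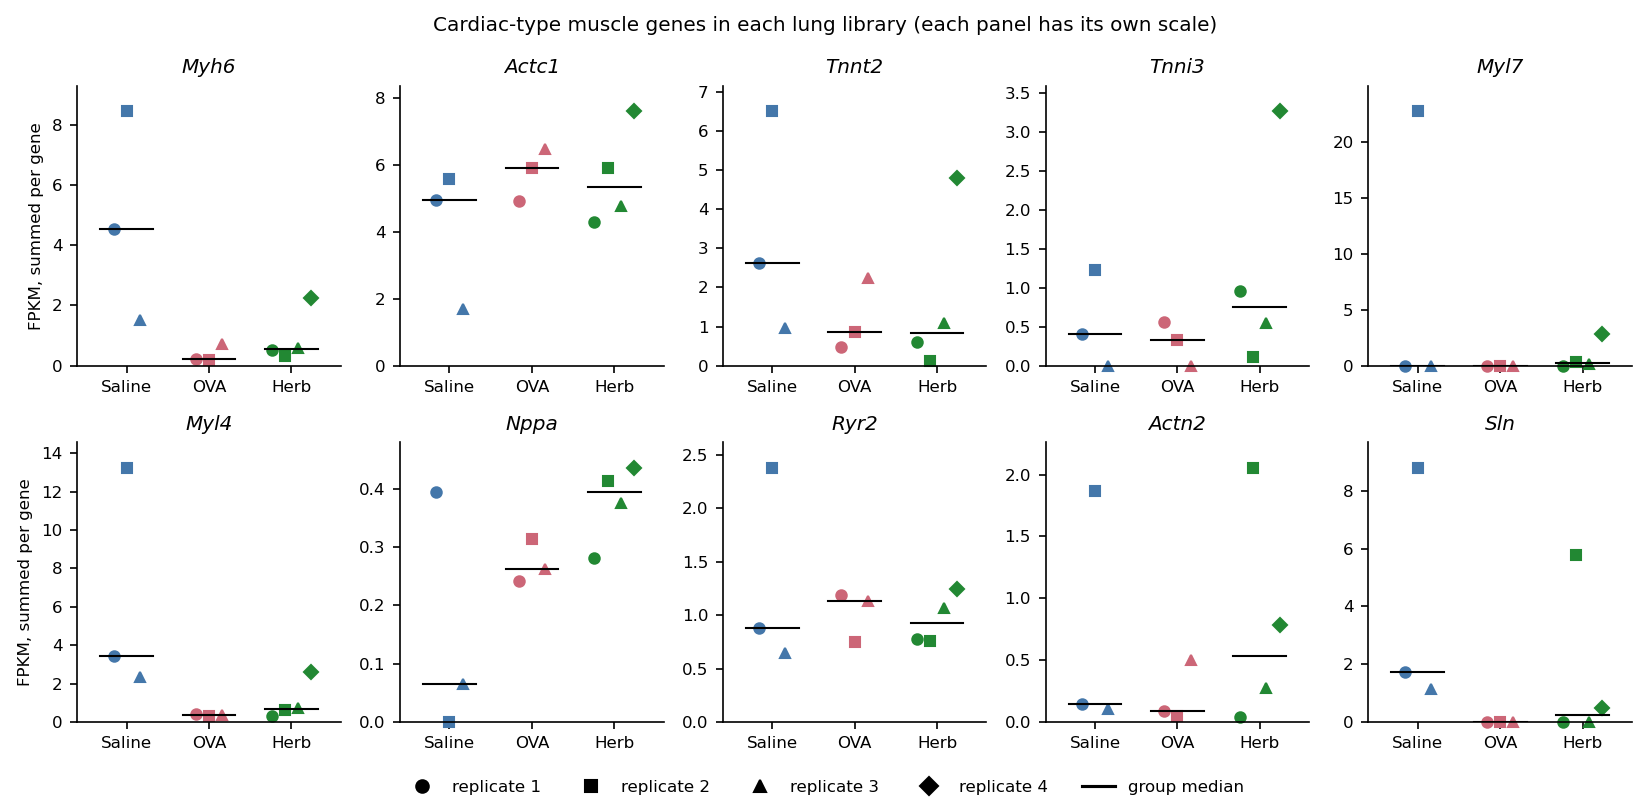
FPKM of the 10 genes, summed over the transcript rows of a gene, in each library of the Saline, OVA and Herb groups. Symbols mark the replicate, lines the group median, and each panel has its own vertical axis from 0. Saline replicate 2, a square, is the highest Saline library in 9 panels, and Herb replicate 4, a diamond, is the highest Herb library in 8.

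Actc1, cardiac alpha actin, forms the thin filament and is also made at low levels outside the heart, among others in smooth muscle. It lies on chromosome 2 from 114047282 to 114052875. It measured 4.96, 5.58 and 1.70 FPKM in Saline, 4.92, 5.91 and 6.46 in OVA and 4.28, 5.90, 4.78 and 7.59 in Herb. Apart from Saline replicate 3, the libraries of all groups lay in one band, and the groups overlapped. As deposited, OVA vs. Saline was 0.51 ± 0.32 on the log2 scale (limma, adjusted p = 0.202), a value 1.26 above the median of all symbols, and without Saline replicate 3 it was 0.10 (limma, adjusted p = 0.713). Actc1 rose in OVA vs. Saline only where libraries were rescaled, by 1.15 ± 0.32 with the 75th percentile (limma, adjusted p = 0.0195) and by 1.76 ± 0.28 with the coding sum (limma, adjusted p = 0.00143). Relative to the median of all symbols it stood at 1.26 to 1.42 in OVA vs. Saline under each of the 4 scalings compared, quantile normalization included.

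Tnnt2, cardiac troponin T, ties the troponin complex to the thin filament. It lies on chromosome 1 from 135836315 to 135852268. Summed over its 9 rows it measured 2.62, 6.50 and 0.975 FPKM in Saline, 0.486, 0.850 and 2.24 in OVA and 0.608, 0.108, 1.08 and 4.81 in Herb. All 3 groups overlapped, and within Herb the highest mouse was 44.6 times the lowest. That ratio is uncertain, since the lowest value, in Herb replicate 2, rests on about 1.91 fragments. It lies under the level of 3 fragments, 0.170 FPKM. None of the comparisons passed the test, with OVA vs. Saline at -0.86 ± 0.65 (limma, adjusted p = 0.277) and Herb vs. OVA at 0.06 ± 0.61 (limma, adjusted p = 0.949). Without Saline replicate 2 the OVA vs. Saline value was -0.37, and leaving out any 1 library gave -1.33 to -0.37.

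Tnni3, cardiac troponin I, the inhibitory subunit, is found only in heart muscle in the adult. It lies on chromosome 7 from 4518305 to 4522718. It measured 0.406 and 1.23 FPKM in the first 2 Saline libraries and was listed at 0 in the third, measured 0.559 and 0.332 in 2 OVA libraries and was listed at 0 in OVA replicate 3, and measured 0.956, 0.112, 0.551 and 3.26 in Herb. The groups overlapped, and no more than 58.1 fragments lay behind any value. Actn2, the alpha actinin that anchors thin filaments at the Z-disc of heart and skeletal muscle, lies on chromosome 13 from 12269426 to 12340732 and measured 0.148, 1.87 and 0.103 FPKM in Saline, 0.0846, 0.0442 and 0.498 in OVA and 0.0431, 2.06, 0.278 and 0.785 in Herb. Its 2 highest values came from Herb replicate 2 and Saline replicate 2, and all other libraries lay under 1 FPKM. For both genes the two-sided exact permutation test on FPKM gave p between 0.286 and 0.743 in the 3 comparisons, where the smallest p it can give is 0.1 for 3 against 3 mice and 0.0571 for 4 against 3.

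Myl7, the regulatory light chain of atrial myosin, is the most atrial of these genes. It lies on chromosome 11 from 5896637 to 5898782 on a transcript of 590 bases. It measured 22.7 FPKM in Saline replicate 2 and 2.87 in Herb replicate 4. Herb replicates 2 and 3 measured 0.287 and 0.181, Saline replicate 1 measured 0.0104, and Saline replicate 3, Herb replicate 1 and all 3 OVA libraries list it at 0. An FPKM of 22.7 came from about 287 fragments, the 2.87 from 33.1, and a count of 0 fragments in the OVA libraries would allow up to 0.173 to 0.251 FPKM, the level of 3 fragments, by counting error alone. With 1 mouse this far above the rest, no comparison was called, and the OVA vs. Saline difference was -1.53 (limma, adjusted p = 0.254). Without Saline replicate 2 that difference was -0.01 (limma, adjusted p = 0.993), and the Herb vs. Saline difference turned from -0.89 to 0.63 on the log2(FPKM + 1) scale (limma, adjusted p = 0.403).

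Myl4, the essential light chain of atrial myosin, lies on the same chromosome from 104546017 to 104587215. It measured 3.42, 13.2 and 2.32 FPKM in Saline, 0.400, 0.328 and 0.369 in OVA and 0.302, 0.609, 0.742 and 2.59 in Herb. Every Saline mouse stood above every OVA mouse, and Herb replicate 4 was the only Herb mouse to reach the Saline range. The OVA values rest on 6.58 to 10.3 fragments each, and the Saline values on 41.8 to 249.

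In OVA vs. Saline, Myl4 fell by 2.12 ± 0.53 on the log2 scale (limma, adjusted p = 0.00674), to -1.37 relative to the median of all symbols. It fell by 1.64 ± 0.49 in Herb vs. Saline (limma, adjusted p = 0.0395), and Herb vs. OVA was 0.48 ± 0.49 (limma, adjusted p = 0.450). After the 75th percentile rescaling OVA vs. Saline was -1.74 (limma, adjusted p = 0.0304) and Herb vs. Saline -1.46, not called (limma, adjusted p = 0.0753). After rescaling to the coding sum neither was called (limma, adjusted p = 0.0575 and 0.117). Without Saline replicate 2 the OVA vs. Saline value was -1.49 (limma, adjusted p = 0.0116), and Herb vs. Saline was -1.01 and not called (limma, adjusted p = 0.104).

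Ryr2, the ryanodine receptor that releases calcium for the heartbeat, lies on chromosome 13 from 11553099 to 12106945. It measured 0.879, 2.38 and 0.649 FPKM in Saline, 1.18, 0.751 and 1.13 in OVA and 0.779, 0.755, 1.07 and 1.24 in Herb. Except for Saline replicate 2 all libraries lay between 0.649 and 1.24, and the groups overlapped. Its long transcript gave 187 to 857 fragments per library, the firmest low values of the 10 genes. OVA vs. Saline was -0.12 ± 0.26 (limma, adjusted p = 0.710). The sign turned with the scaling, to 0.29 with the 75th percentile (limma, adjusted p = 0.430) and to 0.70 with the coding sum, where it was called (limma, adjusted p = 0.0475). It also turned as deposited without Saline replicate 2, to 0.19.

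Sln, sarcolipin, a small protein that slows the calcium pump in atrial and in skeletal muscle, lies on chromosome 9 from 53850251 to 53853849. It measured 1.73, 8.80 and 1.16 FPKM in Saline, is listed at 0 in all 3 OVA libraries and in Herb replicates 1 and 3, and measured 5.79 and 0.491 in Herb replicates 2 and 4. Every Saline mouse stood above every OVA mouse. A count of 0 fragments in OVA would allow up to 0.0774 to 0.112 FPKM. The OVA vs. Saline difference in mean log2(FPKM + 1), which depends on the added 1 and is no fold change, was -1.95 ± 0.77 and missed the threshold (limma, adjusted p = 0.0521). Without Herb replicate 2, the library high in skeletal muscle genes, the same difference had an adjusted p of 0.0108 in limma, and without Saline replicate 2 it was -1.28 (limma, adjusted p = 0.178). Herb vs. Saline was -1.11 ± 0.72 and not called (limma, adjusted p = 0.274). It was -1.76 ± 0.51 without Herb replicate 2 (limma, adjusted p = 0.0371) and -0.44 without Saline replicate 2 (limma, adjusted p = 0.687).

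Nppa, the precursor of atrial natriuretic peptide, is among the most abundant messages of the atrium. It lies on chromosome 4 from 148000722 to 148002074. It measured 0.395 FPKM in Saline replicate 1, is listed at 0 in Saline replicate 2, and measured 0.0657 in Saline replicate 3. It measured 0.242, 0.314 and 0.262 in OVA and 0.281, 0.413, 0.376 and 0.436 in Herb. The library that was highest in 9 of the other genes of its group was thus the lowest for Nppa, and no library held more than 7.37 fragments of it. The exact permutation test on FPKM gave p = 0.4 for OVA vs. Saline, p = 0.114 for Herb vs. OVA and p = 0.171 for Herb vs. Saline. Of its exonic bases 61.5% lie opposite the annotated gene Gm13054, and the sources differ on whether the library kit kept strand, so fragments of the 2 genes may not be told apart.

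Of all 11205 symbols, 61.2% were called in OVA vs. Saline, 44.5% in Herb vs. OVA and 26.1% in Herb vs. Saline. Among the cardiac genes, 2 of the 7 tested genes were called lower in OVA vs. Saline and none higher, where 57.9% of all 11205 symbols were called lower and 3.28% higher. No gene was called in Herb vs. OVA, where 44% of all symbols were called higher and 0.446% lower. In Herb vs. Saline 2 of the 7 were called lower, Myh6 and Myl4 again, and none higher, against 22.7% and 3.32% of all symbols. After the 75th percentile rescaling, Myh6 and Myl4 were called lower and Actc1 higher in OVA vs. Saline, against 29.7% and 13.6% of all symbols, and no gene was called in Herb vs. Saline, against 15.7% lower and 3.99% higher. As deposited, the shares of the 7 genes lay below those of the table in OVA vs. Saline and Herb vs. OVA and near them in Herb vs. Saline. OVA vs. Saline and Herb vs. Saline share the Saline mice. Groups that did not overlap at all were found for Myh6, Myl4 and Sln, all lower in OVA vs. Saline, against 63% of all symbols. For none of the 10 genes were groups apart in Herb vs. OVA, against 49.6% of all symbols apart and higher and 0.651% lower, or in Herb vs. Saline, against 6.94% higher and 36.6% lower, and none was apart and higher in OVA vs. Saline, against 4.68%. The median log2 difference of the 7 tested genes in OVA vs. Saline was -1.53 beside -0.75 for all symbols, which is the value of Myl7 and rests on 1 mouse: without Saline replicate 2 it was -0.37 beside -0.76. With no filter the median over all 10 genes was -0.61 beside -0.20 for all symbols. In lung as a whole, fewer cells of this muscle and less of the message in each cell cannot be told apart.

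On the level of single transcripts, 7 of the 19 rows had a mean of at least 1 FPKM and were tested among 30194 rows. NM_001164171 of Myh6 and NM_010858 of Myl4 were called lower in OVA vs. Saline (limma, adjusted p = 0.0111 and 0.0103), where 44.2% of all rows were called in either direction. In Herb vs. Saline neither row was called (limma, adjusted p = 0.0721 and 0.0722), against 8.09% of all rows, and in Herb vs. OVA none was called against 32.4%.

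**Figure D2:**
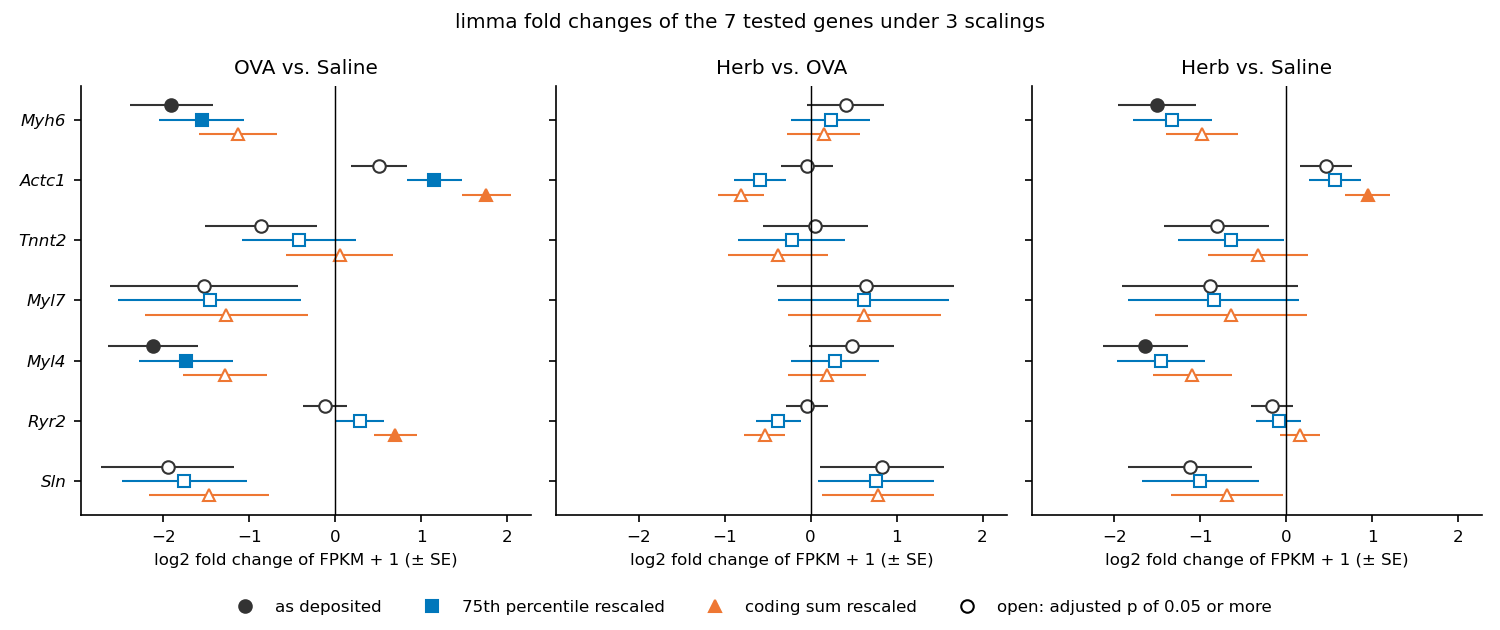
Log2 fold change of FPKM + 1 for the 7 tested genes in OVA vs. Saline, Herb vs. OVA and Herb vs. Saline, with the standard error as bars, from limma on 11205 symbols. Circles are values as deposited, squares after the 75th percentile rescaling and triangles after rescaling to the coding sum, and filled symbols have an adjusted p under 0.05. Myh6 and Myl4 lie left of 0 in OVA vs. Saline under all 3 scalings and are open under the coding sum, and the bars of Myl7 and Sln, which are listed at 0 in OVA, depend on the added 1.

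The spread between mice was wide for these genes in Saline and Herb. The SD of log2(FPKM + 1) had a median over the 10 genes of 0.868 in Saline, 0.172 in OVA and 0.657 in Herb, beside 0.174, 0.261 and 0.232 over all 11205 symbols. All 10 genes lay above the median of all symbols in Saline, 8 in Herb and 4 in OVA. The low OVA median partly reflects low values: Myl7 and Sln are listed at 0 in every OVA library, and the added 1 shrinks differences near 0. As ratios, the highest OVA mouse was 11.3 times the lowest for Actn2, 4.61 for Tnnt2 and 3.85 for Myh6. The lowest Actn2 value among them, in OVA replicate 2, rests on about 3.07 fragments. For Actc1, Myl4, Nppa and Ryr2 the ratio was 1.22 to 1.58. Pooled within groups, Myl7 spread more than 99.6% of the symbols of like mean level (within 2 times its own), Sln more than 96.7%, Tnnt2 93.1%, Actn2 92.6%, Tnni3 91.2%, Myl4 88.1% and Myh6 85.6%. Actc1 (75.3%), Ryr2 (68.5%) and Nppa (49.0%) sat closer to genes of their level. Where a mean comes mostly from few libraries, as for Myl7 and Sln, matching on that mean largely sets a high rank in advance. The ranks of these genes are a description only. Rescaling to the 75th percentile left the medians at 0.837, 0.199 and 0.629. Single libraries carried much of this spread: without Saline replicate 2 the Saline median was 0.283 beside 0.111 for all symbols, without Herb replicate 4 the Herb median was 0.206 beside 0.223, and without OVA replicate 3 the OVA median was 0.0557 beside 0.220.

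**Figure D3:**
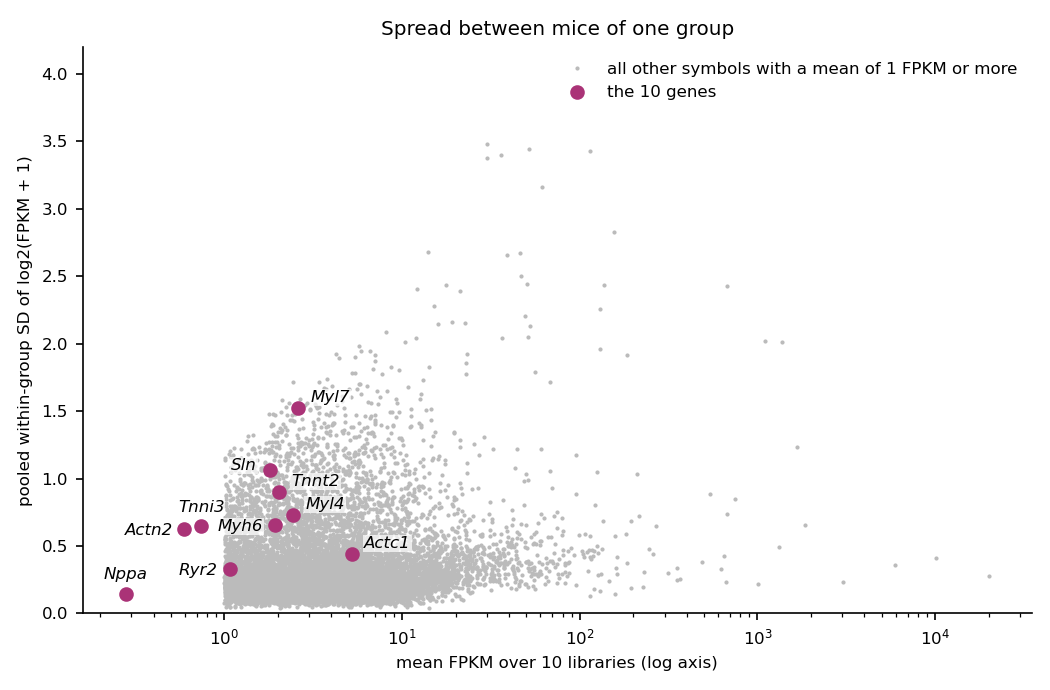
Pooled within-group SD of log2(FPKM + 1) against mean FPKM over the 10 libraries, on a log axis, for the 10 genes (large points) and all other symbols with a mean of at least 1 FPKM (small points). Myl7, at 1.52, lies near the upper edge of the symbols of its level, and Nppa, at 0.146, is the lowest of the 10 genes.

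The mice that were high were high for most genes at once. Saline replicate 2 was the highest Saline mouse for 9 of the 10 genes and Saline replicate 3 the lowest for the same 9, Nppa being the exception in both. Herb replicate 4 was the highest Herb mouse for 8 genes, and Herb replicate 2 for the other 2, Actn2 and Sln. In OVA the highest place was shared among the 3 mice, which held it for 3, 1 and 4 genes. These counts were identical after the 75th percentile rescaling. Summed over the 10 genes, Saline held 19.1, 70.8 and 8.50 FPKM, OVA 8.10, 8.71 and 11.7, and Herb 7.78, 16.3, 9.65 and 26.3. Without Actc1 the sums were 14.1, 65.2 and 6.79 in Saline, 3.18, 2.80 and 5.22 in OVA and 3.50, 10.4, 4.87 and 18.7 in Herb. On the sums without Actc1, Saline replicate 3 lay below Herb replicates 2 and 4.

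Ratios within a library set the genes against each other, and they depend on its scaling through the added 1. That 1 is larger than every Nppa value (at most 0.436 FPKM) and near the size of Ryr2. The ratio of Nppa to Myh6 therefore largely restates Myh6. Myh6 enters the ratios by its RefSeq rows alone, whose share of the FPKM at their place differed between groups. The log2 ratio of Ryr2 to Myh6 was -1.56, -1.48 and -0.61 in Saline, 0.84, 0.56 and 0.31 in OVA, and 0.21, 0.42, 0.38 and -0.54 in Herb. OVA did not overlap Saline, and Herb reached closest with replicate 4. The ratio of Nppa to Myh6 was -1.99, -3.24 and -1.24 in Saline, 0.03, 0.15 and -0.44 in OVA and -0.26, 0.11, -0.21 and -1.18 in Herb. Both ratios were higher in OVA than in Saline in every library, by 1.79 and 2.07, with an exact two-sided permutation p of 0.1, the smallest 3 against 3 mice can give (0.25 after Benjamini-Hochberg adjustment over 5 ratios). In Herb vs. Saline they differed by 1.34 and 1.77, with an exact permutation p of 0.0571, again the smallest possible (0.143 adjusted). The ratios of Sln to Myh6, Myh6 to Myh7 and Myl7 to Myl2 overlapped between all groups, and with 0.1 in place of the added 1 the first and second of these did not overlap in OVA vs. Saline. The same change moved the OVA vs. Saline differences of Ryr2 to Myh6 and Nppa to Myh6 to 3.10 and 4.13.

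The other genes of cardiac muscle were taken from 5 lists of 65 genes, all in the table, of which 22 had a mean of at least 1 FPKM. In OVA vs. Saline 11 of the 22 (50%) were called lower and 1 higher, near the 57.9% and 3.28% of all symbols. With the 75th percentile 7 were lower and 3 higher, against 29.7% and 13.6% of all symbols. With the coding sum 7 were lower (31.8%) and 4 higher (18.2%), where 987 of all 11205 symbols were lower and 4239 higher. In Herb vs. OVA 6 were called higher (27.3%, beside 44%), and none after the 75th percentile rescaling, where 0.491% of all symbols were called. Of the 22, 6 were called lower in Herb vs. Saline (27.3%) and 1 higher, near the 22.7% and 3.32% of all symbols. Of 20 genes of the sarcomere and Z-disc 5 were tested, and Ankrd1, a stretch-responsive protein, and Myh7 fell in OVA vs. Saline and in Herb vs. Saline. Ankrd1 measured 6.02, 10.3 and 6.43 FPKM in Saline, 0.511, 0.533 and 0.979 in OVA and 1.70, 1.49, 0.943 and 3.50 in Herb, with a change of -2.33 ± 0.30 in OVA vs. Saline (limma, adjusted p = 2.2e-04).

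Myh7 measured 7.76, 5.60 and 4.83 FPKM in Saline, was at 0 to 0.0042 in OVA, and measured 1.39 and 2.76 in Herb replicates 2 and 3 with under 0.01 in the other 2. Its difference on the log2(FPKM + 1) scale in OVA vs. Saline was -2.79 ± 0.47 (limma, adjusted p = 8.2e-04), and it was called under all 3 scalings. It was called lower in Herb vs. Saline as well (limma, adjusted p = 0.0152), a call lost in 7 of 22 alternatives, among them the coding sum and the fits without Saline replicate 1 or Saline replicate 2, with adjusted p up to 0.0980 in limma. The Myh7 values under 0.01 lie below the level of 3 fragments of Myh6 in the same libraries (0.0167 to 0.0288 FPKM). Myh7 shares windows with Myh6, and models without a symbol were not added to it. Assignment of its fragments to other models was not tested. Tcap, a Z-disc protein shared with skeletal muscle, measured 8.60 FPKM in Saline replicate 2, 4.52 in Herb replicate 2 and at most 1.26 elsewhere. Myom1, of the M-band, measured 1.14 to 2.62 in Saline, 2.21 to 2.97 in OVA and 1.65 to 4.11 in Herb.

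Of 10 calcium handling genes 5 were tested. Asph, Atp2a2 (the calcium pump SERCA2, made in many tissues) and Slc8a1 were called in both comparisons with OVA as deposited, with the lower level in OVA each time. Atp2a2 measured 23.3 to 31.5 FPKM in Saline, 10.3 to 18.5 in OVA and 24.8 to 32.4 in Herb. None of the 3 was called in either comparison after the 75th percentile rescaling, and with the coding sum Asph was called higher in OVA vs. Saline, by 0.51 (limma, adjusted p = 0.00543). Cacna1c, the cardiac calcium channel, measured 0.374 to 3.16 in Saline, 0.703 to 3.02 in OVA and 0.854 to 4.44 in Herb.

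Of 12 conduction and channel genes 4 were tested. Gja1 (connexin 43) fell in OVA vs. Saline, from 11.1, 14.8 and 11.9 FPKM to 1.41, 3.05 and 1.58, and Popdc2 was called lower too. Gja5 (connexin 40), atrial in the heart and endothelial in the lung, was called higher in Herb vs. OVA. Kcnq1 was the 1 gene of the 22 called higher in OVA vs. Saline, with 0 to 1.17 FPKM in Saline, 2.27 to 4.17 in OVA and 2.68 to 4.68 in Herb.

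Of 10 metabolic genes 6 were tested, and Cox6a2, Cox7a1, Fabp3 and Pdk4 fell in OVA vs. Saline. Fabp3, a fatty acid carrier of heart and red muscle, measured 3.54, 9.09 and 3.26 FPKM in Saline, no more than 0.237 in OVA and 0.745 to 1.82 in Herb. Pdk4 measured 15.2 FPKM or more in Saline, 0.848 to 2.30 in OVA and 3.61 to 19.7 in Herb. Ckm and Mb were highest in Herb replicate 2, at 26.4 and 15.1. Of 13 transcription factors and hormones 2 were tested, Tbx5 and Mef2c, and neither was called in any comparison. Hand2, Nppb and Bmp10 of that list are listed at 0 in all libraries, and Smyd1 had a mean of 0.109 FPKM.

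**Figure D4:**
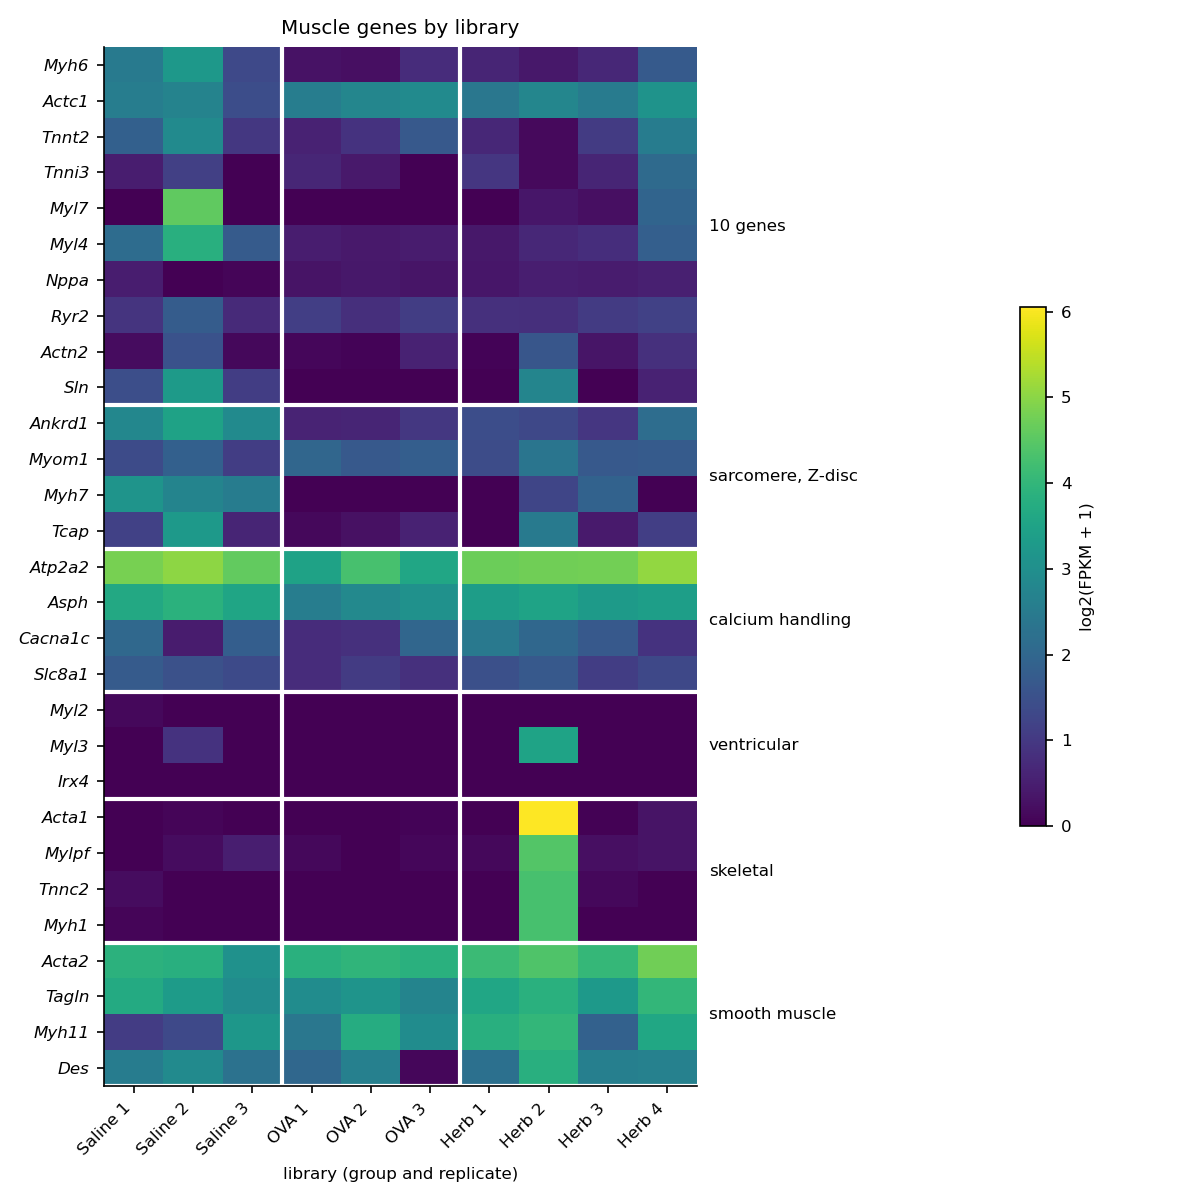
Log2(FPKM + 1) of the 10 genes and of genes of other muscle types (rows) in the 10 libraries (columns). The skeletal genes are bright in Herb replicate 2 alone, with Acta1 at 65.6 FPKM, the ventricular gene Myl2 is dark throughout, and the brightest cell of the 10 genes is Myl7 in Saline replicate 2.

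Markers of neighbouring tissues moved with some of these values. The 15 skeletal muscle genes summed to 165 FPKM in Herb replicate 2 and to 0.926 to 3.45 in the other 9 libraries, and 14 of the 15 were highest there. With 1 such library none of the 7 tested genes of this list was called in any comparison. Acta1, Mylpf, Tnnc2 and Myh1 measured 65.6, 20.6, 18.6 and 18.6 FPKM in that library and at most 0.426 in any other. Sln and Actn2, which skeletal muscle also makes, were highest of Herb in the same library, whereas Myh6, Tnnt2, Tnni3 and Ryr2 were lowest of Herb in it. The part of skeletal muscle in the Sln and Actn2 values was not tested.

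Ventricular muscle was checked by 6 genes. Myl2, the ventricular light chain, was at 0.0949 FPKM in Saline replicate 1 and is listed at 0 in the other 9 libraries, and Irx4 is listed at 0 in all 10. Myl3, which slow skeletal muscle shares, measured 10.3 in Herb replicate 2 and 0.837 in Saline replicate 2 and is listed at 0 elsewhere. Hey2 and Lbh, which vessels and other lung cells also make, measured 0.213 to 1.64 and 4.83 to 30.5 over all libraries. Myh7, also on this list and shared with slow skeletal muscle, measured 4.83 to 7.76 in Saline, with 5.60 in Saline replicate 2. In that library, where Myl7 was at 22.7, Myl2 and Irx4 are listed at 0 and Myl3 and Myh7 were above 0, and the part of ventricular muscle in its values was not tested.

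The 10 smooth muscle genes, all tested, summed to 37.9 to 53.3 FPKM in Saline, 38.9 to 53.1 in OVA and 44.7 to 81.5 in Herb. Acta2, Tagln, Myh11 and Des were present in every library, with Acta2 at 7.36 to 25.6. Hhip was called lower in OVA vs. Saline as deposited and after the 75th percentile rescaling, and Acta2, Actg2, Lmod1 and Myh11 were called higher once libraries were rescaled to the 75th percentile (4 of 10 higher and 1 lower, against 13.6% and 29.7% of all symbols). With the coding sum 6 of 10 were called higher and Hhip was not called, where 4239 of all 11205 symbols were higher and 987 lower. Adipose genes summed to 24.3 to 59.7 in Saline, 6.67 to 9.39 in OVA and 13.7 to 28.5 in Herb, led by Lpl and Lipe, which lung cells make as well, while Cidec exceeded 1 FPKM in Saline replicate 1 and Herb replicate 1 alone. Thymus genes (sums of 0.867 to 3.87, with Ptcra and Foxn1 listed at 0 throughout), airway cartilage genes (0.117 to 1.48) and oesophagus and squamous genes (0.0230 to 0.226) were low in all libraries, with no gene tested. Alveolar type 2 genes summed to 3066 to 4028 in Saline, 358 to 669 in OVA and 873 to 1729 in Herb. Of the 6, 4 were called lower in OVA vs. Saline (57.9% of all symbols) and 4 in Herb vs. Saline (22.7%). With the coding sum the Herb vs. Saline count was 2 of 6, where 320 of all 11205 symbols were lower.

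The genes outside all lists whose pattern was most like that of the 10, by Pearson's r over the 10 libraries with their mean log2 value after the 75th percentile rescaling, were Hist1h2ac (r = 0.902), Bzw2 (0.897), Pear1 (0.895), Sptlc2 (0.894), Hist3h2a (0.888), Med31, Yy1, Mrps12, 2700094K13Rik and Phykpl (0.853). Pear1 measured 5.07 FPKM in Saline replicate 2 and 4.13 in Herb replicate 4 and at most 0.865 elsewhere, and Sptlc2 measured 21.7 and 10.2 in the same 2 mice. These r values are a description over 10 libraries that share groups and depth, with no test.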

How the data were processed

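RNA was extracted from frozen lung tissue and sequenced as paired-end libraries, 3 of Saline, 3 of OVA and 4 of Herb mice. Groups and replicate numbers came from the sample titles. Trizol and a TruSeq RNA kit are named in the labels, and another extraction kit and a stranded TruSeq kit in the methods of the study, so whether reads kept strand is not settled. Per the submitters' processing notes, cutadapt 1.10, HISAT2, StringTie 1.3.3b, edgeR 3.16.5 and the build mm10 were used. FPKM values were deposited by the authors for 66548 transcript rows, scaled to mapped fragments and not further between libraries. FPKM are not counts, so no count test was run.

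FPKM were summed over the 34943 rows with a symbol, which share 24394 symbols. The 31605 assembled models without a symbol entered the test of rows and 1 alternative for Myh6. limma 3.58.1 (R 4.3.3) was fitted on log2(FPKM + 1) with an intensity trend, on all 10 libraries and 3 group means, for the 11205 symbols with a mean of at least 1 FPKM, with two-sided tests and Benjamini-Hochberg adjustment over all symbols and a threshold of 0.05. Members below that mean were compared by exact permutation of FPKM. The procedure was tested on simulated data with independent normal noise, no shift between libraries, and changes placed only in genes of higher mean level. That test does not cover low genes with zeros or 1 outlying library, such as Sln and Myl7. Depth was estimated from the value of 1 fragment (the mode of FPKM times length among low values of genes with 1 row), and intervals and floors (3 fragments) cover counting error only. The labels do not say that libraries of a group came from separate mice, so p-values measure only the spread between these samples, which may be technical. No batch is given in the labels. Positions and promoters came from RefSeq on GRCm38.p6, and 9 of the 10 genes had a promoter entry.

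The genes, the companion lists (other cardiac sarcomere and Z-disc, calcium handling, conduction and channels, metabolism, transcription factors and hormones, ventricular, skeletal and smooth muscle, adipose tissue, thymus, airway cartilage, oesophagus and squamous epithelium, alveolar type 2 cells) and the tests were chosen with earlier results of these data known. Named were all 10 genes, up to 4 genes of each list with the highest mean FPKM, and the 10 genes most alike. Other list genes named (called genes and markers listed at 0) were chosen after their values were seen. Alternatives were a pseudocount of 0.1, no filter, a filter of 5 FPKM, 3 other scalings (75th percentile, quantile, coding sum), a fit of 2 groups only, the replicate block, no trend, and leaving out each library. Same-numbered libraries of different groups correlated at -0.01 to 0.10 in their deviations from group means, so the numbers do not pair the mice.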

Additional observations from a re-analysis of the deposited data

Results flagged for a closer look

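In the Herb group, the only one with enough mice for a check of single values, 47 genes that reached 1 FPKM in a Herb library, taken from the 10 genes and the highest genes of each list, were examined for 1 library far from the other 3 by Dixon's ratio. A library was singled out for 12 of them, and it was Herb replicate 2 for 8. List genes were taken by mean level and for reaching 1 FPKM in Herb, so a gene high in 1 Herb library alone could enter through it. The genes also vary together, so the count of 12 cannot be set against chance. Herb replicate 4 stood above the other 3 in Myh6 (2.26 FPKM), Myl7 (2.87) and Cd4 (1.69). Herb replicate 2 stood above them in Sln (5.79), Ckm (26.4), Mb (15.1), Myl3 (10.3), Acta1 (65.6), Mylpf (20.6), Tnnc2 (18.6) and Myh1 (18.6), of which all but Sln are genes of the skeletal muscle, ventricular or metabolic lists. Herb replicate 1 stood above them in Cidec (2.18), a gene of fat cells. The 2 groups of 3 mice were not examined in this way, although Myl7 in Saline replicate 2 is the highest value of the 10 genes.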

How the results depend on the processing

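The count of called genes among the 10 was 2 in OVA vs. Saline, 2 to 3 when 1 library was left out, and 0 with a filter of 5 FPKM, where 1 of the genes remained in the test. It was 0 in Herb vs. OVA under all alternatives. The 2 calls of Herb vs. Saline were the least stable: 0 with no filter, with a filter of 5 FPKM, with the 75th percentile, with quantile normalization, with only the 2 groups fitted, and with the 75th percentile without both Saline replicate 2 and Herb replicate 2 (chosen after seeing the data, as were the other fits without both libraries and the fit of Myh6 with the models of its locus); 1 with a pseudocount of 0.1 (Myl4), the coding sum (Actc1, higher), the Myh6 locus models (Myl4) and without both libraries (Sln); and 0 to 2 when 1 library was left out. Myh6 lost this call without Saline replicate 1 or 2, OVA replicate 2, or Herb replicate 1, 2 or 3, and Myl4 lost it without any 1 library other than Saline replicate 3 or Herb replicate 4. Sln was called in OVA vs. Saline without Saline replicate 3 as well (adjusted p = 0.0435 in limma). With the replicate block 1 of these 2 calls, Myl4, was kept, Sln was added in OVA vs. Saline (adjusted p = 0.0251 in limma), and no other call among the 10 changed.

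Signs turned for genes that were not called as deposited. Tnnt2 in OVA vs. Saline was 0.05 with the coding sum and 0.08 with the 75th percentile without both libraries, in Herb vs. Saline 0.01 and 0.18 without both libraries (as deposited and rescaled), and in Herb vs. OVA -0.18 with a pseudocount of 0.1, -0.22, -0.28 and -0.38 with the 75th percentile, quantile and coding sum scalings and -0.42 with the replicate block. Ryr2 in OVA vs. Saline was 0.29, 0.33 and 0.70 under those scalings, and 0.19 and 0.60 without both libraries. In Herb vs. Saline it was 0.16 with the coding sum and 0.20 and 0.30 without both libraries, and in Herb vs. OVA 0.00 without both as deposited. Myl7 in Herb vs. Saline was 0.72 without both libraries, as deposited and rescaled. Leaving out 1 library gave -0.42 to 0.38 for Tnnt2 (and -1.28 to -0.31 in Herb vs. Saline), -0.18 to 0.06 for Actc1 and -0.15 to 0.01 for Ryr2 in Herb vs. OVA, -0.32 to 0.19 for Ryr2 in OVA vs. Saline, and -0.37 to 0.15 for Ryr2 and -1.65 to 0.63 for Myl7 in Herb vs. Saline. The ratio of Sln to Myh6 in Herb vs. Saline turned from 0.39 to -0.35 with a pseudocount of 0.1. The cause was not tested.

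Of the 22 cardiac companion genes, 12 were called in OVA vs. Saline. With no filter 20 of 61 were called, beside 7052 of all 20819 symbols lower and 543 higher. With a filter of 5 FPKM 4 of 4 were called, beside 3118 of all 3955 symbols lower and 62 higher. The 6 of Herb vs. OVA became 0 under the 75th percentile (also without both libraries), quantile and coding sum scalings, and 3 to 8 when 1 library was left out, with 3 without OVA replicate 1, OVA replicate 3 or Herb replicate 1. The 7 of Herb vs. Saline became 1 with a filter of 5 FPKM, 4 with quantile normalization and 1 with the 75th percentile without both libraries. Depth limits Nppa, Tnni3, Myl7, Actn2 and Sln, which rest on under 20 fragments in most libraries, those listed at 0 included. It also limits Myl4 in OVA, at 6.58 to 10.3 fragments.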
